A study of Mus musculus with 6 samples.

Results

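The unconventional myosins of hair cells were followed here as 8 genes, *Myo6*, *Myo7a*, *Myo15*, *Myo3a*, *Myo3b*, *Myo1c*, *Myo1e* and *Myo10*, out of 51802 gene symbols measured in the mouse cochlea. Members were taken by gene symbol, and their 66 transcripts, out of 128603 listed, were summed to one value per gene and also kept apart to give the transcript mix. The samples were whole cochleae at 2 months of age on a C57/BL6J background, with 3 wildtype samples (replicates 3, 4 and 5) and 3 *Pou4f3(Δ/+)* samples (replicates 1, 2 and 3). The *Pou4f3(Δ/+)* mice carry 1 wildtype allele and 1 knock-in allele with a short deletion that truncates Pou4f3, a transcription factor that hair cells need to survive. Mice of both genotypes carry the *Cdh23(ahl)* allele of the C57BL/6J strain, which itself causes hearing loss with age. RNA of the whole cochlea was sequenced in bulk, so that hair cells gave a small part of it, and fewer cells of a type cannot be told apart from less RNA per cell. The labels do not say whether a sample is 1 animal or a pool, and p-values measure only the spread between these samples. Values of single samples are given in replicate order throughout.

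Unconventional myosins are motors that walk along actin filaments and carry or tether other proteins. In hair cells they build and hold the stereocilia, the actin-filled projections that turn sound into an electrical signal. Myosin VI stands at the base of the bundle and myosin VIIa at the tip links, while myosins XVa, IIIa and IIIb carry proteins to the stereocilia tips. Mutations of the genes of myosins VI, VIIa, XVa and IIIa cause deafness. Myosins Ic, Ie and X are made by many other cell types as well. For no member, *Myo6* included, does bulk RNA of the cochlea show which cells made it.

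Both the level of each myosin and its splice forms were of interest, so the sequences that part the forms are given first. Each is written 5′ to 3′ from the GENCODE M21 transcript of that name (build GRCm38), and the coordinates are those of the part in capitals. The first is a coding insert near the end of *Myo6* (chr9:80303273-80303299, plus strand, 27 bases), held by Myo6-201 and lacking in Myo6-203, the pair of forms with the highest *Myo6* levels. The second is the stretch of intron, in capitals, with which the retained-intron transcript Myo6-207 starts (chr9:80306914-80306959, plus strand).
Myo6 insert of Myo6-201: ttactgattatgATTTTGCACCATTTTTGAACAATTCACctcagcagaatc
Myo6 start of Myo6-207: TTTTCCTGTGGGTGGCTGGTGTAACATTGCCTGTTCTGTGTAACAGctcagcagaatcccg

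*Myo7a* and *Myo15* forms differ by in-frame coding segments. The longest *Myo7a* form, Myo7a-204, holds 114 bases (chr7:98065782-98065895, minus strand, in capitals) that Myo7a-201 lacks. Myo15-201 holds a coding exon of 54 bases (chr11:60497523-60497576, plus strand, in capitals) that Myo15-203 lacks, and both hold a long exon of 3762 bases (chr11:60476215-60479976) that Myo15-202 skips.
Myo7a segment of Myo7a-204: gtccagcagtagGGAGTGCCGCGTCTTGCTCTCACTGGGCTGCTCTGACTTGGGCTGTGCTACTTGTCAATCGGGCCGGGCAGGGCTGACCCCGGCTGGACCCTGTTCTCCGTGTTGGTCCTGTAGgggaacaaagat
Myo15 exon of Myo15-201: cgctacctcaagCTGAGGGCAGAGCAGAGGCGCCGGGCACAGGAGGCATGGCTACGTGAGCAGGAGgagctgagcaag

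For the class I myosins, Myo1c-204 starts its coding sequence 48 bases (in capitals, 16 codons, between chr11:75656184 and 75657521, plus strand) before the start codon of Myo1c-201. Myo1e-203 holds an extra exon of 68 bases (chr9:70304560-70304627, plus strand) after the exon numbered 4. Its first 16 bases are read as coding and are followed by a stop codon, in capitals, and the annotation marks the transcript as a target of nonsense-mediated decay, the pathway that removes mRNA with an early stop. The same junction in the protein-coding Myo1e-201 follows it, and the first 30 bases of both lines are the shared exon.
Myo1c start of Myo1c-204: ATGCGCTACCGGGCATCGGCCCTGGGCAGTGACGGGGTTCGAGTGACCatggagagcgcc
Myo1e junction of Myo1e-203: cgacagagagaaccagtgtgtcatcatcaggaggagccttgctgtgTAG
Myo1e junction of Myo1e-201: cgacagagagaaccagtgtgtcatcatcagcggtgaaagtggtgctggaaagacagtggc

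The summed counts of a sample ranged from 14295069 to 17696784. *Pou4f3* itself had 68, 72 and 88 counts across wildtype samples, against 66, 97 and 52 counts across *Pou4f3(Δ/+)* samples. Both alleles feed these counts, so they give no check of the genotypes. Of 13 hair cell marker genes, 12 were above 0 in all 6 samples and *Cabp2* was listed at 0 in all of them, and the summed marker level was 58.1 to 61.0 FPKM in wildtype, against 50.8 to 61.2 FPKM across *Pou4f3(Δ/+)* samples. *Pou4f3(Δ/+)* replicates 1 and 2 separated from the remaining 4 samples along principal component 1, with scores of 23.2 and 40.2 against -21.5 to -11.7. The sum of 9 B cell markers, all above 0, was also higher there, at 301.5 and 340.1 FPKM against 148.6 to 175.2 FPKM in the wildtype samples and 181.6 FPKM in *Pou4f3(Δ/+)* replicate 3. Replicate 3 thus also lay above each wildtype sample in these markers. Other marker sums parted replicates 1 and 2 from the remaining 4 samples as well. Sums were lower there for Schwann cells (792.4 and 783.0 FPKM against 939.2 to 1091), spiral ganglion neurons (560.0 and 497.4 against 610.3 to 690.4), stria and melanocytes (178.7 and 167.2 against 193.8 to 225.4) and smooth muscle (22.8 and 21.8 against 30.7 to 45.9). The sum for supporting cells was lower there too (324.4 and 306.0 FPKM against 377.0 to 447.4), but on the mean log2 CPM of the same genes replicate 2, at 4.66, lay above wildtype replicates 3 and 4, at 4.52 and 4.51. For red blood cells the sums were higher, at 15230 and 17780 FPKM against 11550 to 13420. On mean log2 CPM 2 kinds of marker were lower in all *Pou4f3(Δ/+)* samples, replicate 3 included. Stria and melanocytes had 4.64, 4.59 and 4.67 against 4.82 to 5.14 in wildtype. Bone had 6.46, 6.45 and 6.67 against 6.73 to 6.86, although its FPKM sums overlapped. The part of all these cells in the results below was not tested. Results are also given without *Pou4f3(Δ/+)* replicates 1 and 2. This leaves 1 *Pou4f3(Δ/+)* sample against 3 wildtype samples, so that the spread then comes from wildtype alone.

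None of the 8 myosin genes passed the test between genotypes. The counts were tested with edgeR's quasi-likelihood test over all genes with Benjamini-Hochberg adjustment, and a gene was called at an adjusted p under 0.05. Over the whole series 0 of 17136 genes (0%) were called, and 7.64% had an unadjusted p under 0.05, against 0 of the 8 myosins. DESeq2 on the same counts called 64 genes (0.373%), with 0 of the 8 myosins among them and adjusted p of 0.876 to 0.995 for the members. Log2 fold changes were below 0 for 5 members and above 0 for 3, with a median of -0.09 against a median of -0.003 over all genes tested.

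The level of expression per length, in FPKM (fragments per kilobase, relative to all fragments counted in the sample), differed widely between members. In wildtype samples *Myo6* was highest at 34.9 ± 5.10 FPKM (mean ± SD, n = 3), followed by *Myo1c* at 26.99 ± 0.444, *Myo1e* at 18.6 ± 0.824 and *Myo10* at 17.5 ± 0.940. *Myo7a* stood at 8.79 ± 0.739 FPKM, *Myo15* at 0.913 ± 0.168, *Myo3a* at 0.27 ± 0.05 and *Myo3b* at 0.237 ± 0.0252. Neighbours in this order had ranges that overlapped for *Myo1e* with *Myo10* and for *Myo3a* with *Myo3b*, and ranges that lay apart otherwise. In *Pou4f3(Δ/+)* samples *Myo1c* stood first at 30.3 ± 3.60 FPKM (n = 3) and *Myo6* next at 27.7 ± 1.16, with overlapping ranges, and *Myo3b* stood before *Myo3a*, also with overlapping ranges. Counting only protein-coding transcripts, a sum chosen after seeing the data, placed *Myo1c* first in both genotypes, at 24.6 ± 0.321 FPKM in wildtype, with *Myo6* at 23.6 ± 1.92 and overlapping ranges. It also lowered *Myo7a* to 3.16 ± 0.729 FPKM.

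**Figure D1:**
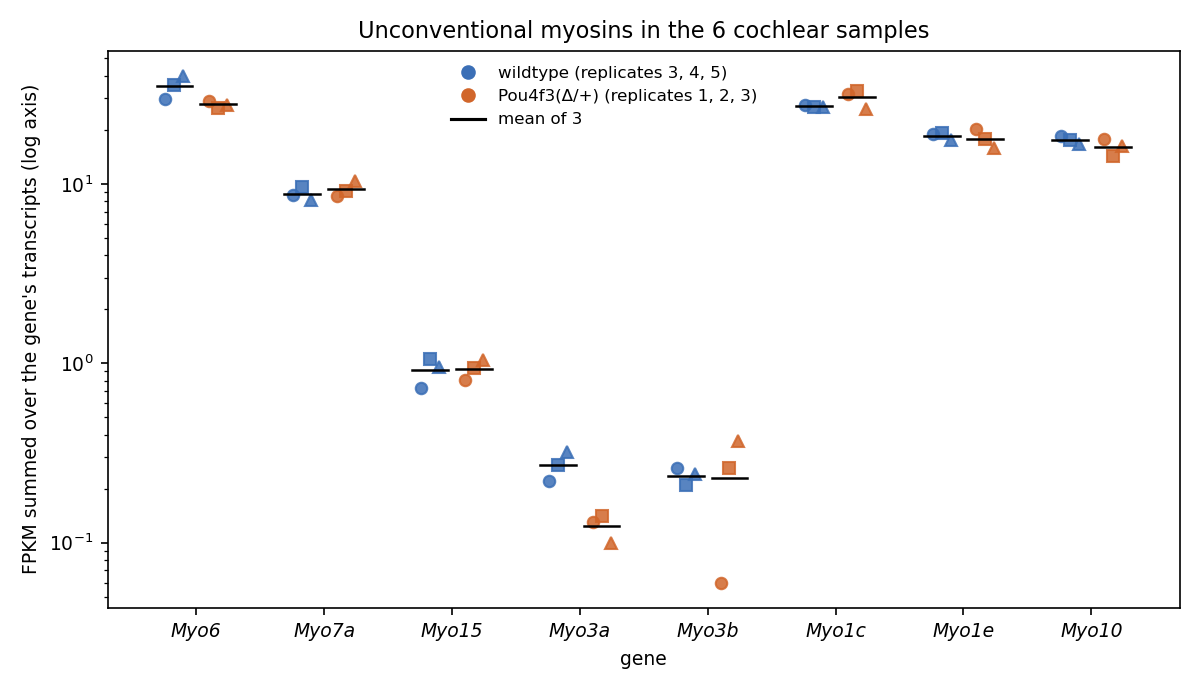
FPKM summed over the transcripts of each of the 8 myosin genes (log axis) in the 3 wildtype samples (blue) and the 3 *Pou4f3(Δ/+)* samples (orange); circles, squares and triangles are the lowest, middle and highest replicate number of a genotype, and lines are means. *Myo6* and *Myo3a* are the 2 genes whose orange points all lie below the blue points, and *Myo15*, *Myo3a* and *Myo3b* lie near or below 1 FPKM.

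*Myo6* (ENSMUSG00000033577, chr9:80165031-80311729, plus strand) encodes myosin VI, which moves toward the minus end of actin, anchors the base of the stereocilia and serves endocytosis. It had 29.6, 35.3 and 39.8 FPKM across wildtype samples, against 28.9, 26.6 and 27.5 FPKM across *Pou4f3(Δ/+)* samples. All 3 *Pou4f3(Δ/+)* samples lay below all wildtype samples (exact two-sided permutation p = 0.1, the smallest that 3 against 3 can give). FPKM groups lay apart in this way for 2 of the 8 members and for 12.1% of all genes tested. The counts, 3018, 2646 and 3561 in wildtype, against 2895, 2321 and 2824 across *Pou4f3(Δ/+)* samples, did not lie apart, and neither did the scaled counts (CPM, counts scaled to the sample's TMM-normalized total), which were 152.1 to 189.98 in *Pou4f3(Δ/+)* and 176.0 to 208.8 in wildtype samples. Its log2 fold change was -0.17 (standard error 0.10, 95% interval -0.40 to 0.07, adjusted p = 0.691, edgeR). Without *Pou4f3(Δ/+)* replicates 1 and 2, left out after seeing the data, it was 0.005.

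The gap between FPKM and counts in *Myo6* came with short retained-intron transcripts, which weigh more per count in FPKM. Restricted to its 6 protein-coding transcripts, *Myo6* had 22.3, 22.7 and 25.8 FPKM across wildtype samples, against 20.4, 18.5 and 25.1 FPKM across *Pou4f3(Δ/+)* samples, and the groups overlapped. Its 5 retained-intron transcripts summed to 7.35, 12.7 and 13.9 FPKM in wildtype, against 8.40, 8.10 and 2.39 FPKM across *Pou4f3(Δ/+)* samples. They held 3.96%, 6.32% and 6.22% of the gene's counts across wildtype samples, against 3.99%, 5.03% and 1.42% across *Pou4f3(Δ/+)* samples. The FPKM sums and the shares overlapped between genotypes. The summed counts, not scaled for depth, were 119.3, 167.3 and 221.4 in wildtype, against 115.4, 116.7 and 40.04 across *Pou4f3(Δ/+)* samples, and lay apart.

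Myo6-207 (ENSMUST00000138650), whose first bases are printed above, had 66.7, 79.9 and 107.6 expected counts across wildtype samples, against 18.4, 52.2 and 12.4 across *Pou4f3(Δ/+)* samples. Each *Pou4f3(Δ/+)* sample lay below each wildtype sample, and the means were 1.47 ± 1.18 FPKM in *Pou4f3(Δ/+)* and 4.38 ± 1.04 FPKM in wildtype (SD, n = 3 each). The log2 fold change was -1.59 (standard error 0.60, 95% interval -3.04 to -0.14), with an unadjusted p of 0.0359 and an adjusted p of 0.999 in edgeR's fit over 38347 transcripts. For the *Myo6* gene, a known target of Pou4f3, the study reported no apparent change by RT-qPCR or RNA-seq. The study had listed the transcript Myo6-207 from these samples, so the direction of this transcript is no independent evidence. Without *Pou4f3(Δ/+)* replicates 1 and 2 its log2 fold change was -2.69. Myo6-208 (ENSMUST00000139981), the other retained-intron transcript with a sizeable level, had 48.4, 77.0 and 99.9 counts in wildtype, against 88.6, 49.8 and 14 counts across *Pou4f3(Δ/+)* samples, and these groups overlapped.

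Most *Myo6* counts went to Myo6-201 and Myo6-203, which differ by the 27-base insert. The coding forms with the insert held 46.9%, 45.5% and 37.1% of the gene's counts across wildtype samples, against 42.6%, 36.5% and 45.2% across *Pou4f3(Δ/+)* samples. Coding forms without it held 48.2% to 56.7% in wildtype and 53.3% to 58.5% in *Pou4f3(Δ/+)* samples. Forms without the insert held the larger share in each sample, and the shares of both kinds overlapped between genotypes. The transcript mix was tested with edgeR's diffSpliceDGE, which asks over all genes whether the transcripts of a gene change by unlike folds. The 7 *Myo6* transcripts tested gave an edgeR adjusted p of 1.0.

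**Figure D2:**
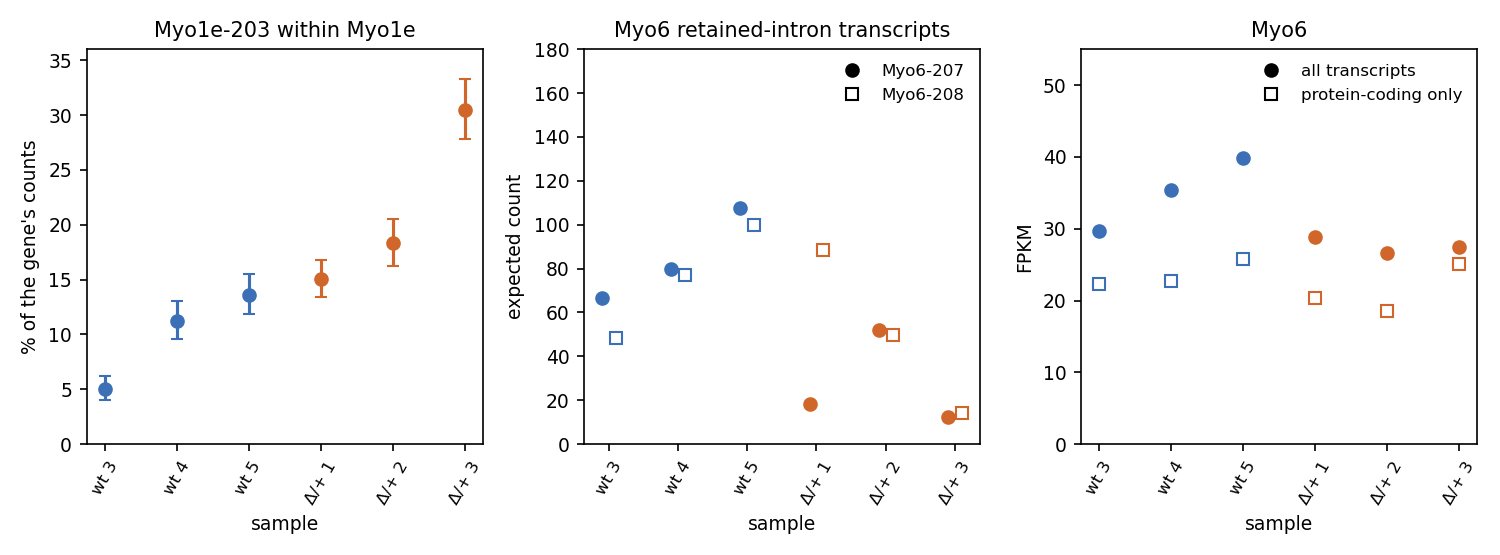
Left, the percent of *Myo1e* counts assigned to Myo1e-203 in each sample with 95% Wilson intervals; middle, expected counts of Myo6-207 (filled) and Myo6-208 (open); right, *Myo6* FPKM over all transcripts (filled) and over protein-coding transcripts (open). Wildtype samples are blue and *Pou4f3(Δ/+)* samples orange: the orange points lie above the blue for Myo1e-203 and below for Myo6-207, and the 2 colours mix once *Myo6* is limited to coding transcripts.

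*Myo7a* (ENSMUSG00000030761, chr7:98051060-98119524, minus strand) encodes myosin VIIa, which holds the upper end of the tip link with harmonin and SANS and is widely used to mark hair cells. It had 8.66, 9.59 and 8.13 FPKM across wildtype samples, against 8.57, 9.16 and 10.3 FPKM across *Pou4f3(Δ/+)* samples. Its counts were 663, 543 and 548 in wildtype, against 692, 587 and 525 across *Pou4f3(Δ/+)* samples. Both sets overlapped between genotypes. Fitted to the counts, the log2 fold change was 0.06 (standard error 0.10, 95% interval -0.17 to 0.29, adjusted p = 0.894, edgeR), which bounds the ratio between 0.89-fold and 1.22-fold. Without *Pou4f3(Δ/+)* replicates 1 and 2 it was -0.03.

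A sizeable part of the *Myo7a* reads belonged to short transcripts from the end of the gene. Transcripts that are not coding or are marked for decay held 28.9%, 38.6% and 46.3% of its counts across wildtype samples, against 25.3%, 37.1% and 41.2% across *Pou4f3(Δ/+)* samples. Most of them were of Myo7a-212 (ENSMUST00000156992), a decay target of 18 exons whose FPKM alone made up 50.0% of the wildtype mean and 43.1% of the *Pou4f3(Δ/+)* mean. The shares overlapped between genotypes. The 6 forms marked protein coding summed to 2.39 to 3.84 FPKM in wildtype, against 2.98 to 4.0 FPKM across *Pou4f3(Δ/+)* samples.

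Among the coding forms, Myo7a-204 with the 114-base segment had 197.5, 186.7 and 132.1 counts in wildtype and 369.1, 322.2 and 112.1 counts across *Pou4f3(Δ/+)* samples. Forms without the segment summed to 274.0, 146.8 and 162.2 counts in wildtype, against 148.1, 46.7 and 196.6 counts across *Pou4f3(Δ/+)* samples. The 2 *Pou4f3(Δ/+)* samples with high Myo7a-204 were those that stood apart, and in *Pou4f3(Δ/+)* replicate 3 its FPKM of 1.02 equalled the lowest wildtype value. The log2 fold change of Myo7a-204 was 0.62 with a 95% interval of -0.39 to 1.63, and without those samples it was -0.50. The reads without the segment were placed on Myo7a-202 in wildtype replicate 5 (161.9 counts, against 0.3 on Myo7a-201) and on Myo7a-201 in the other samples, so the division between these 2 nearly alike forms differed from sample to sample. The mix of its 4 tested transcripts gave an edgeR adjusted p of 1.0.

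*Myo15* (ENSMUSG00000042678, chr11:60469339-60528369, plus strand) encodes myosin XVa, which carries whirlin, EPS8 and the GPSM2 complex to the stereocilia tips. Its level was near the lower end, with 0.73, 1.06 and 0.95 FPKM across wildtype samples, against 0.81, 0.94 and 1.04 FPKM across *Pou4f3(Δ/+)* samples. The counts were 130, 136 and 140 in wildtype, against 124, 112 and 130 across *Pou4f3(Δ/+)* samples. The FPKM groups overlapped, and the highest *Pou4f3(Δ/+)* count equalled the lowest wildtype count. By the counts, the log2 fold change was -0.13 (standard error 0.17, 95% interval -0.51 to 0.25, adjusted p = 0.851, edgeR). On log2(FPKM + 0.5) it was 0.02, and without *Pou4f3(Δ/+)* replicates 1 and 2 it was 0.06.

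The long exon of *Myo15* codes for an extended start of the protein, and the short form without it is the one that elongates developing stereocilia. Forms with the long exon held 70.1%, 66.4% and 32.5% of the gene's counts across wildtype samples, against 51.4%, 28.8% and 39.9% across *Pou4f3(Δ/+)* samples. Myo15-202, the form without it, held 29.9%, 29.6% and 63.9% in wildtype, against 45.3%, 66.2% and 57.5% across *Pou4f3(Δ/+)* samples. Wildtype replicate 5 stood with the *Pou4f3(Δ/+)* samples, and the shares overlapped (exact two-sided permutation p = 0.3). Between Myo15-201 and Myo15-203, which differ by the 54-base exon, wildtype replicate 4 had 90.0 and 0.2 counts and wildtype replicate 5 had 0.1 and 45.4 counts. Such swings between replicates of 1 genotype left the log2 fold change of Myo15-201 with a 95% interval of -4.92 to 3.48. The mix of its 3 tested transcripts gave an edgeR adjusted p of 1.0.

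*Myo3a* and *Myo3b*, the class III myosins with a kinase domain that carry espins to the stereocilia tips, had few counts. *Myo3a* (ENSMUSG00000025716, chr2:22227503-22618252, plus strand) had 8, 11 and 11 counts across wildtype samples, against 10, 11 and 5 counts across *Pou4f3(Δ/+)* samples, and the counts overlapped. Its FPKM did not overlap, at 0.22, 0.27 and 0.32 in wildtype, against 0.13, 0.14 and 0.10 across *Pou4f3(Δ/+)* samples (exact two-sided permutation p = 0.1, the smallest possible). The counts had been assigned to different transcripts. The full-length Myo3a-201 had 0.0, 5.0 and 0.3 counts in wildtype, against 8.5, 11 and 3.3 counts across *Pou4f3(Δ/+)* samples. The shorter Myo3a-203 had 8.0, 1.1 and 3.9 counts in wildtype, against 0.0, 0.0 and 1.7 counts across *Pou4f3(Δ/+)* samples. A count on a shorter transcript is worth more FPKM. The log2 fold change of the summed counts was -0.19 with a 95% interval of -1.23 to 0.84 (adjusted p = 0.928, edgeR), which spans ratios of 0.428-fold to 1.79-fold. Without *Pou4f3(Δ/+)* replicates 1 and 2 it was -0.87. Of 4 antisense genes inside *Myo3a*, *Gm13340* had 3 to 12 counts and *Gm13341* 2 to 6 counts in a sample, and whether the counting used strand is not given in the sources used here.

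*Myo3b* (ENSMUSG00000042064, chr2:70039126-70429198, plus strand) had 22, 9 and 18 counts across wildtype samples, against 7, 16 and 30 counts across *Pou4f3(Δ/+)* samples. The *Pou4f3(Δ/+)* samples held both the lowest and the highest value of *Myo3b*, in FPKM also (0.06, 0.26 and 0.37, against 0.21 to 0.26 in wildtype). Its log2 fold change was 0.19 with a 95% interval of -1.09 to 1.47 (adjusted p = 0.946, edgeR). Leaving out 1 sample moved it between -0.48 and 0.62, and without *Pou4f3(Δ/+)* replicates 1 and 2 it was 1.02. Most *Myo3b* counts lay on Myo3b-203 (57.8% of FPKM in wildtype and 73.9% in *Pou4f3(Δ/+)* means). The interval of the whole gene spans ratios of 0.472-fold to 2.77-fold, so that smaller differences in *Myo3b* were not resolved at these counts.

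**Figure D3:**
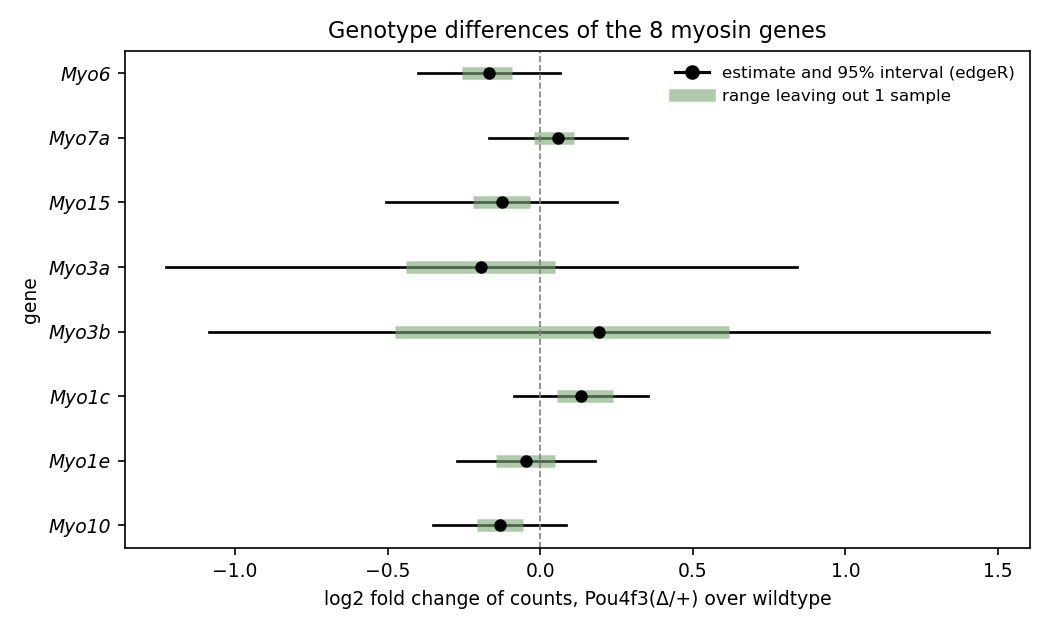
Log2 fold change of the counts in *Pou4f3(Δ/+)* over wildtype for the 8 genes (points), with edgeR's 95% interval (thin line) and the range found when 1 sample is left out (green bar). Each interval spans 0; those of *Myo3a* and *Myo3b* reach from -1.23 to 1.47, while the other 6 stay between -0.51 and 0.35.

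*Myo1c* (ENSMUSG00000017774, chr11:75650504-75673910, plus strand) encodes a class I myosin that links membranes to actin and has been proposed as the motor of slow adaptation in hair cells. It had 27.5, 26.8 and 26.7 FPKM across wildtype samples, against 31.8, 32.8 and 26.2 FPKM across *Pou4f3(Δ/+)* samples. The counts were 1985, 1657 and 1996 in wildtype, against 2327, 2151 and 1622 across *Pou4f3(Δ/+)* samples. The high values were those of *Pou4f3(Δ/+)* replicates 1 and 2, where the B cell and red blood cell markers were also high and those of Schwann cells and neurons low, and *Pou4f3(Δ/+)* replicate 3 lay below all wildtype samples. The fitted log2 fold change was 0.13 (standard error 0.10, 95% interval -0.09 to 0.35, adjusted p = 0.738, edgeR), and without those replicates it was -0.09.

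Protein-coding transcripts held 97.2% to 98.4% of the *Myo1c* counts in every sample. Myo1c-201 had 1063.0, 1037.4 and 1325.0 counts in wildtype, against 1646.8, 1404.6 and 1090.1 counts across *Pou4f3(Δ/+)* samples. Myo1c-204, with the added start printed above, had 739.7, 541.7 and 629.2 counts in wildtype, against 583.3, 685.1 and 431.1 counts across *Pou4f3(Δ/+)* samples. Both forms overlapped between genotypes, with log2 fold changes of 0.29 (95% interval -0.03 to 0.60) for Myo1c-201 and -0.14 (95% interval -0.57 to 0.29) for Myo1c-204. The small retained-intron transcript Myo1c-208 lay higher in FPKM in each *Pou4f3(Δ/+)* sample (2.99, 2.47 and 1.90, against 1.84, 1.18 and 1.26 in wildtype), but its counts overlapped, and its unadjusted p was 0.0843. Myo1c-209, with 3.4 to 23.6 counts, lay lower in FPKM in each *Pou4f3(Δ/+)* sample and overlapped in counts. The mix of its 4 tested transcripts gave an edgeR adjusted p of 1.0.

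*Myo1e* (ENSMUSG00000032220, chr9:70207350-70399766, plus strand) encodes a class I myosin with a long tail that acts in endocytosis and cell adhesion. Its level did not part the genotypes, with 19.0, 19.1 and 17.6 FPKM across wildtype samples, against 20.2, 17.7 and 15.7 FPKM across *Pou4f3(Δ/+)* samples. The counts were 1498, 1265 and 1389 in wildtype, against 1652, 1262 and 1072 across *Pou4f3(Δ/+)* samples. Its log2 fold change was -0.05 (standard error 0.10, 95% interval -0.27 to 0.18, adjusted p = 0.919, edgeR), and -0.25 without *Pou4f3(Δ/+)* replicates 1 and 2.

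The smallest p for a change in transcript mix among the members was that of *Myo1e*. The decay target Myo1e-203 (ENSMUST00000214042), with the extra exon and early stop, had 75.3, 142.1 and 188.8 counts across wildtype samples, against 248.1, 231.0 and 326.9 counts across *Pou4f3(Δ/+)* samples. All *Pou4f3(Δ/+)* samples lay above all wildtype samples. Its share of the gene's counts was 5.01% (95% Wilson interval 4.01% to 6.23%), 11.2% (9.60% to 13.1%) and 13.6% (11.9% to 15.5%) in wildtype replicates 3, 4 and 5. Across *Pou4f3(Δ/+)* samples it was 15.01% (13.4% to 16.8%), 18.3% (16.3% to 20.5%) and 30.5% (27.8% to 33.3%). These intervals take each expected count as a read of its own. They leave out the error of dividing shared reads between Myo1e-203 (4699 bases) and Myo1e-201 (4625 bases). Both forms are alike in most of their sequence, so the intervals are too narrow. Spread between animals is not in them either. Even so, the highest wildtype and the lowest *Pou4f3(Δ/+)* interval overlap. The means were 9.95% ± 4.44 in wildtype and 21.3% ± 8.16 in *Pou4f3(Δ/+)* samples (SD, n = 3 each; exact two-sided permutation p = 0.1, the smallest possible).

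The protein-coding Myo1e-201 had 1411.1, 1122.9 and 1195.0 counts in wildtype, against 1401.9, 1027.6 and 745.1 counts across *Pou4f3(Δ/+)* samples, which overlapped. The log2 fold change was 1.01 for Myo1e-203 (standard error 0.38, 95% interval 0.09 to 1.93, unadjusted p = 0.0363, adjusted p = 0.999, edgeR). For Myo1e-201 it was -0.23 (standard error 0.17, 95% interval -0.63 to 0.17). Without *Pou4f3(Δ/+)* replicates 1 and 2 the log2 fold change of Myo1e-203 was 1.39. The sum of B cell markers was also higher in each *Pou4f3(Δ/+)* sample than in each wildtype sample. On mean log2 CPM the stria and melanocyte markers and the bone markers were lower in each. The part of these cells in the Myo1e-203 difference was not tested. The mix of both *Myo1e* transcripts gave an unadjusted p of 0.0195 and an adjusted p of 0.763 in edgeR's fit over all genes, and thus did not pass.

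*Myo10* (ENSMUSG00000022272, chr15:25622525-25813673, plus strand) encodes myosin X, which walks to the tips of filopodia. It had 18.5, 17.5 and 16.6 FPKM across wildtype samples, against 17.7, 14.3 and 16.3 FPKM across *Pou4f3(Δ/+)* samples, with 1860, 1390 and 1638 counts in wildtype, against 1777, 1241 and 1376 counts across *Pou4f3(Δ/+)* samples. The groups overlapped in both. Fitted to the counts, the log2 fold change was -0.13 (standard error 0.10, 95% interval -0.35 to 0.08, adjusted p = 0.736, edgeR), and -0.12 without *Pou4f3(Δ/+)* replicates 1 and 2. The full-length Myo10-202 (2062 codons) had 1184.0, 724.6 and 797.6 counts in wildtype, against 1110.6, 447.8 and 704.7 counts across *Pou4f3(Δ/+)* samples. The shorter Myo10-201 (1316 codons), which starts within the gene and lacks the motor, had 609.8, 609.9 and 778.3 counts in wildtype, against 595.7, 757.6 and 628.0 counts across *Pou4f3(Δ/+)* samples. Per length, Myo10-202 had 8.44, 6.24 and 5.72 FPKM in wildtype, against 7.72, 3.56 and 5.91 FPKM across *Pou4f3(Δ/+)* samples, and Myo10-201 had 6.01, 7.26 and 7.71 FPKM, against 5.72, 8.32 and 7.28 FPKM. The longer form was thus the higher in wildtype replicate 3 and *Pou4f3(Δ/+)* replicate 1, and the shorter form in the other 4 samples. The mix of its 3 tested transcripts gave an edgeR adjusted p of 1.0.

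**Figure D4:**
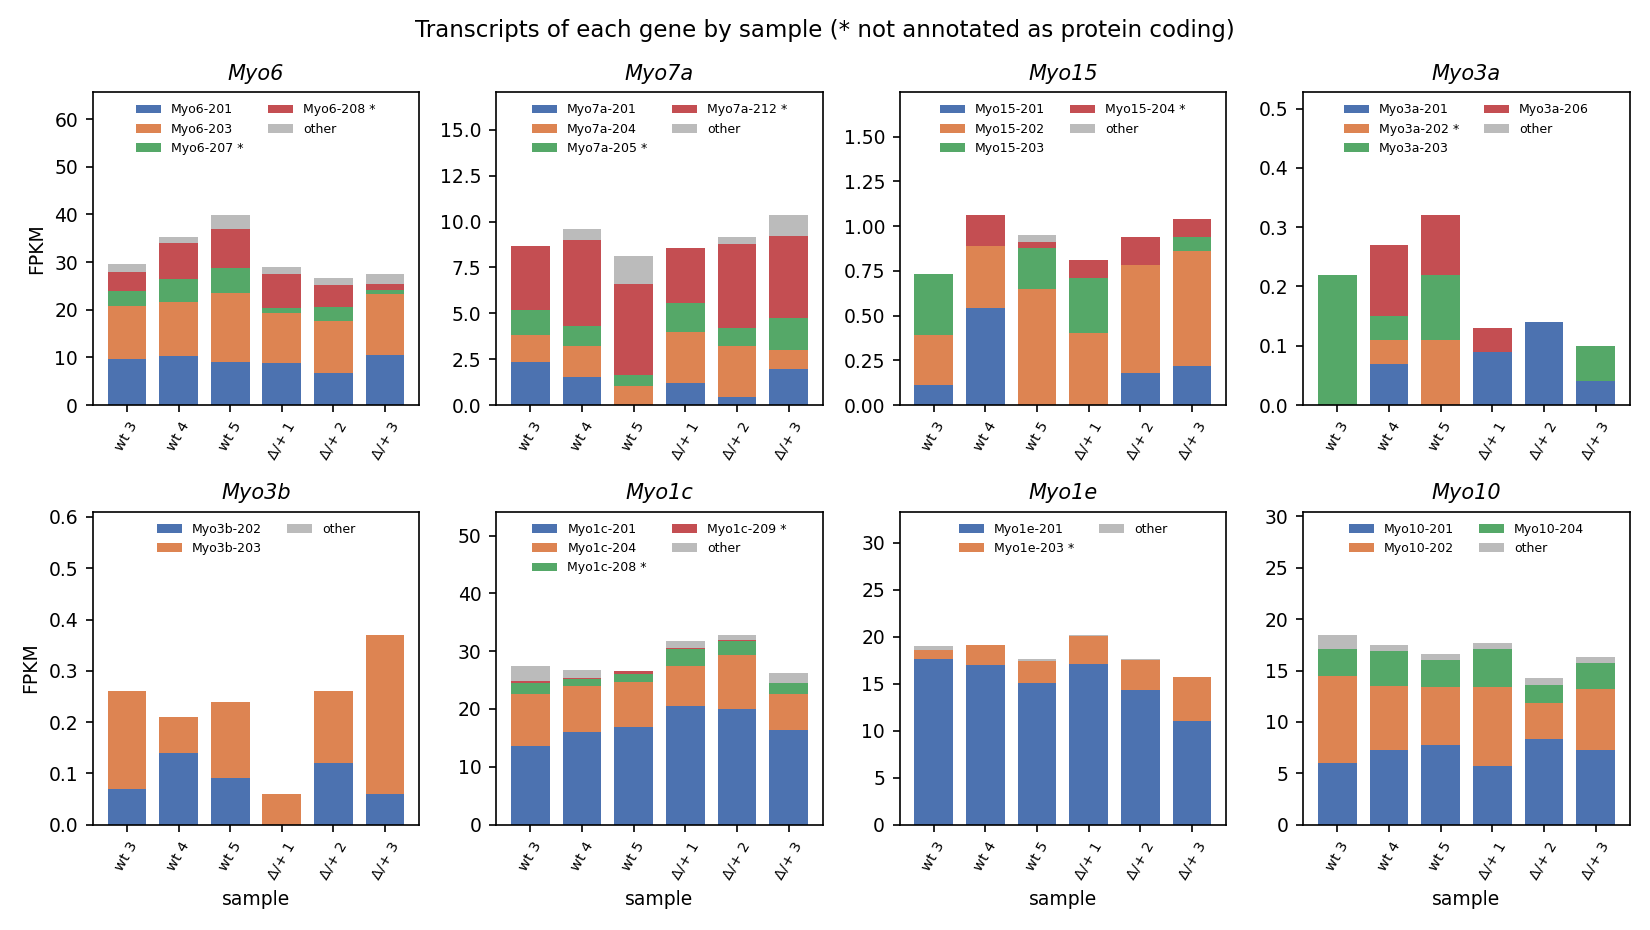
FPKM of the named transcripts of each gene, stacked, in wildtype replicates 3 to 5 (wt) and *Pou4f3(Δ/+)* replicates 1 to 3 (Δ/+); grey is the sum of the other transcripts and an asterisk marks transcripts not annotated as protein coding. *Myo1e* shows the thicker Myo1e-203 segment in *Pou4f3(Δ/+)* samples, *Myo6* the thinner Myo6-207 segment, and *Myo7a* and *Myo15* swings between nearly alike forms within a genotype.

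Over all members, 55 of the 66 transcripts were above 0 in a sample or more and 24 passed the filter on low counts. Of the 24, 0 were called, as were 0 of 38347 transcripts (0%) in all, and 2 had an unadjusted p under 0.05 (Myo6-207 and Myo1e-203), against 4.14% of all transcripts tested. FPKM groups lay apart for 3 of the 24, 2 higher (Myo1e-203 and Myo1c-208) and 1 lower (Myo6-207), against 10.5% of all transcripts tested. The mix test could be run for 6 members, of which 0 were called, against 50 of 8998 genes (0.556%). With an unadjusted p under 0.05 there was 1 of the 6, *Myo1e*, against 4.99% of all genes in that test. Passing the filter depends on the counts of both genotypes, so these 24 do not stand for all 66.

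The genes with which hair cell myosins work gave no call either. Of 25 partner and cargo genes, all were tested, 0 were called, 14 had log2 fold changes above 0 and 11 below, and the median was 0.07. With unadjusted p under 0.05 there were 2 of the 25, close to the 7.64% of all genes tested: *Dab2* and *Tom1*, a pair of endocytic adaptors that bind myosin VI. *Dab2* had 27.7 ± 0.579 FPKM in wildtype, against 23.7 ± 2.79 FPKM across *Pou4f3(Δ/+)* samples (n = 3 each), a log2 fold change of -0.23 (95% interval -0.40 to -0.06, adjusted p = 0.643, edgeR). *Tom1* had 16.1 ± 1.18 and 13.96 ± 0.386 FPKM in that order, a log2 fold change of -0.21 (95% interval -0.41 to -0.02, adjusted p = 0.643, edgeR). *Gipc1*, another adaptor of myosin VI, stood at -0.24 (95% interval -0.50 to 0.02), while *Lmtk2* and *Optn*, which also bind myosin VI, stood at 0.11 (95% interval -0.09 to 0.30) and 0.09 (95% interval -0.08 to 0.26). On the other side were *Gpsm2* at 0.29 (95% interval -0.01 to 0.58) and *Gnai3* at 0.14 (95% interval -0.04 to 0.32), parts of the complex that myosin XVa carries, and *Espnl*, an espin-like cargo of class III myosins, at 0.81 (95% interval -0.28 to 1.90). *Gpsm2* had 16.9 and 14.4 FPKM in *Pou4f3(Δ/+)* replicates 1 and 2, and in replicate 3, at 12.8 FPKM, it lay within the wildtype range of 10.5 to 13.0. Without replicates 1 and 2 the log2 fold change was 0.036 for *Gpsm2*, 0.084 for *Gnai3*, 0.592 for *Espnl*, -0.194 for *Dab2*, -0.254 for *Tom1*, -0.112 for *Gipc1*, 0.017 for *Lmtk2* and 0.018 for *Optn*. FPKM groups lay apart for 3 of the 25 (*Dab2*, *Tom1* and *Rdx*, the actin linker radixin of stereocilia), close to the 12.1% of all genes tested.

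The tip link and tip genes themselves had intervals around 0. *Cdh23* and *Pcdh15*, which form the tip link, had 1.36 ± 0.240 and 0.953 ± 0.241 FPKM in wildtype, against 1.55 ± 0.128 and 0.960 ± 0.275 FPKM across *Pou4f3(Δ/+)* samples. *Ush1c*, the harmonin gene, stood at 5.09 ± 0.396 FPKM in wildtype, against 5.49 ± 0.565 FPKM across *Pou4f3(Δ/+)* samples. *Whrn* and *Eps8*, cargo of myosin XVa, had log2 fold changes of -0.03 (95% interval -0.28 to 0.22) and 0.04 (95% interval -0.26 to 0.34). With replicates 1 and 2 of *Pou4f3(Δ/+)* left out the values were -0.133 for *Whrn*, -0.222 for *Eps8*, 0.163 for *Cdh23*, 0.261 for *Pcdh15* and 0.166 for *Ush1c*, so that *Eps8* turned in direction. The genotypes overlapped in FPKM for all 5 genes.

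Of 15 other unconventional myosins, 14 were tested, 0 were called, 3 had log2 fold changes above 0 and 11 below, and the median was -0.08, where all genes tested held 8472 above and 8664 below. *Myo7b*, the intestinal relative of *Myo7a*, was listed at 0 in all 6 samples. An unadjusted p under 0.05 was found for 1 of the 14, *Myo5c*, close to the 7.64% of all genes tested. *Myo5c* had 4.38 ± 0.731 FPKM in wildtype, against 3.997 ± 0.568 FPKM across *Pou4f3(Δ/+)* samples (n = 3 each), a log2 fold change of -0.33 (95% interval -0.60 to -0.05, adjusted p = 0.643, edgeR). *Myo5b* and *Myo18b* stood at -0.24 and -0.97, and *Myo1g*, *Myo1a* and *Myo16* at 0.16, 0.33 and 0.19, all with intervals that span 0. In the fit that leaves out *Pou4f3(Δ/+)* replicates 1 and 2 the log2 fold change was -0.173 for *Myo5c*, -0.084 for *Myo5b*, -0.005 for *Myo18b* and -0.205 for *Myo1a*. FPKM groups lay apart for 1 of the 14, *Myo9b*, against 12.1% of all genes tested.

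**Figure D5:**
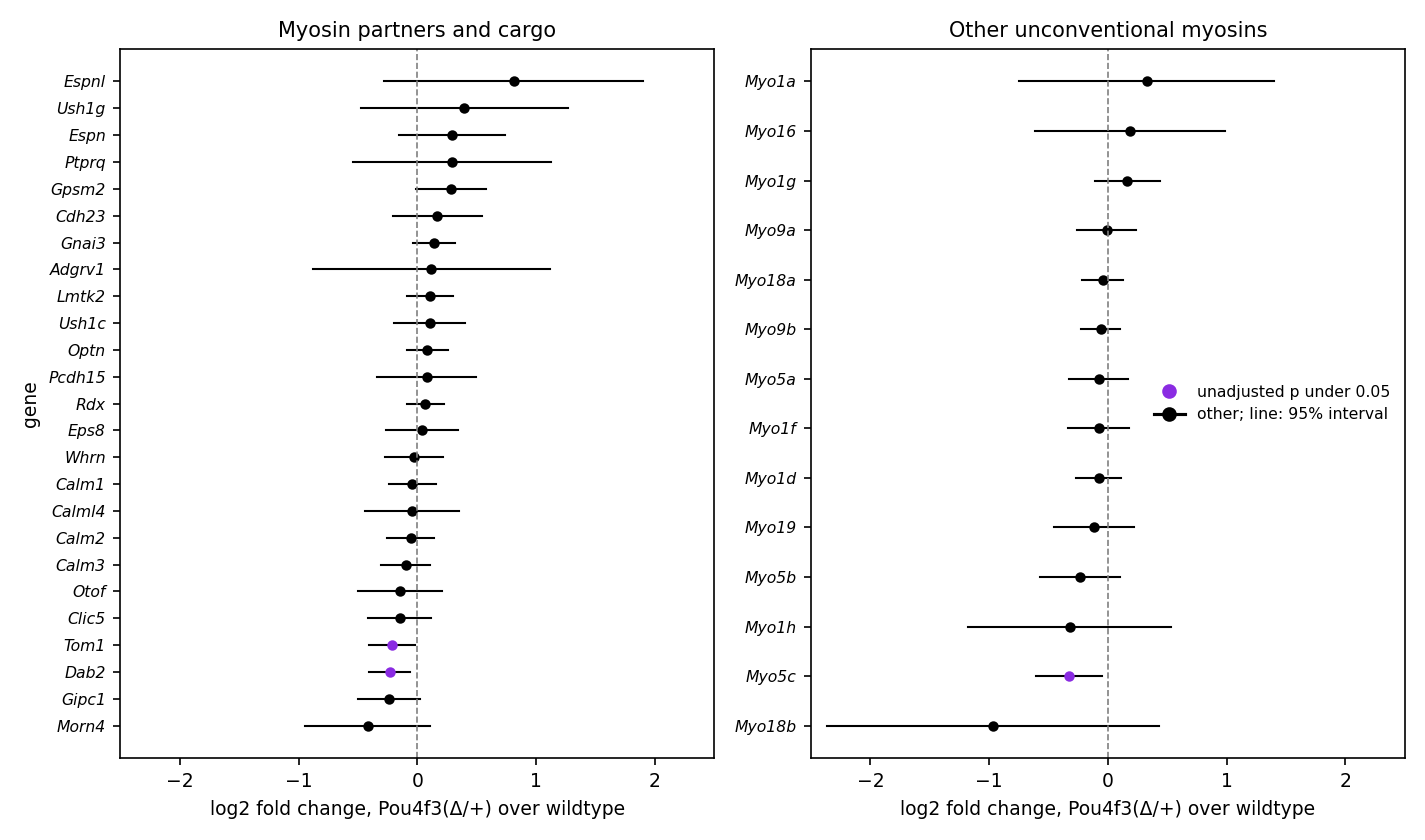
Log2 fold change of the counts in *Pou4f3(Δ/+)* over wildtype with edgeR's 95% intervals for the 25 partner and cargo genes (left) and the 14 other unconventional myosins tested (right), sorted by value; purple points have an unadjusted p under 0.05. The 3 purple points, *Dab2*, *Tom1* and *Myo5c*, lie between -0.33 and -0.21, and none passed the adjustment over all genes.

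The genes whose log2 CPM followed a member most closely over the 6 samples were taken from 17128 other genes tested. For *Myo6* they were *Cpeb2*, *Dixdc1* and *Clstn3* (Pearson's r of 0.998, 0.995 and 0.995), for *Myo7a* *Smim1*, *Dkc1* and *Btnl9* (0.994, 0.991 and 0.989), and for *Myo15* *Ivd*, *Shisa7* and *4833439L19Rik* (0.994, 0.992 and 0.984). With 6 points that share their libraries, 543 genes had r above 0.9 with *Myo6*, 212 with *Myo7a* and 145 with *Myo15*, and these values are a description without a test.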

How the data were processed

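RNA of 3 wildtype and 3 *Pou4f3(Δ/+)* cochlear samples was sequenced with paired-end reads on an Illumina HiSeq instrument. The labels name either poly(A) selection or rRNA removal and do not say which was used. For each transcript the authors deposited an expected count (an estimate that need not be whole, not normalized) and an FPKM value (per kilobase of transcript, relative to all fragments counted in the sample). The aligner and the counting program are not given in the sources used here; the submitters' processing notes name DESeq2 and the build mm8. All 66 member transcripts were found by ID in GENCODE M21 (GRCm38), and the listed length of each equalled its genomic span there, so coordinates and sequences were taken from that annotation. Summed over the transcripts of a gene, the members' expected counts were whole numbers within rounding, so that a division of reads among transcripts leaves the gene sums as they are.

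Expected counts, rounded to whole numbers, were tested per gene symbol and per transcript with edgeR 4.0.16 in R 4.3.3. Features were kept by filterByExpr at a minimum count of 10 and a minimum total of 15, libraries were scaled by TMM, and genotype was tested by quasi-likelihood in all 6 samples with no covariate. P-values were adjusted by Benjamini-Hochberg over all features, with a threshold of 0.05. Transcript mix was tested with diffSpliceDGE. FPKM was compared by its ranges and an exact permutation test (SciPy 1.17.1). Each test was first checked on simulated counts. Alternatives were DESeq2 1.42.0, its size factors in edgeR, no filter, limma-trend (limma 3.58.1) on log2(FPKM + 0.5), with pseudocounts of 0.1 and 1, Simes p-values for the mix, CPM in place of FPKM, and each sample left out. Leaving out *Pou4f3(Δ/+)* replicates 1 and 2 together and summing protein-coding transcripts alone were added after seeing the data. The members and gene lists were chosen with earlier results of these data known. Named transcripts were those with at least 10 percent of a gene's FPKM in either genotype mean, those with FPKM groups apart and a mean count of at least 10, and Myo6-207; from each list the 3 genes with the smallest p in each direction were named, and the tip link and tip genes, *Lmtk2* and *Optn* were added after their values were seen. Intervals of shares are 95% Wilson intervals. 1 gene of the list of other unconventional myosins is not reported here. Myo6-207 was named because the study lists it. Apart from that listing and the study's report on the *Myo6* gene, the authors' own test results were not used.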

Additional observations from a re-analysis of the deposited data

How the results depend on the processing

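No member, no other unconventional myosin and no partner or cargo gene was called under any alternative, and the lowest adjusted p of a member over its alternatives was 0.149 (*Myo1c*). The direction of several small differences was not stable. Without *Pou4f3(Δ/+)* replicates 1 and 2 the log2 fold change turned to 0.005 for *Myo6*, -0.033 for *Myo7a*, 0.059 for *Myo15* and -0.086 for *Myo1c*, and to -0.504 for Myo7a-204, 0.013 for Myo7a-212, 0.617 for Myo7a-201, 0.083 for Myo6-201 and 0.066 for Myo6-203. On log2(FPKM + 0.5), log2(FPKM + 0.1) and log2(FPKM + 1), *Myo15* turned to 0.021, 0.031 and 0.015 and *Myo3b* to -0.036, -0.162 and -0.016, and Myo7a-201 turned to 0.165 on the first. The difference of *Myo15* (*Pou4f3(Δ/+)* minus wildtype) was 0.0167 FPKM but -0.710 CPM and -0.0367 FPKM on protein-coding transcripts, and that of *Myo3b* was -0.00667 FPKM but 0.167 CPM.

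Leaving out 1 sample at a time gave log2 fold changes of -0.020 to 0.110 for *Myo7a*, -0.439 to 0.049 for *Myo3a*, -0.475 to 0.618 for *Myo3b* and -0.144 to 0.049 for *Myo1e*, and kept the sign of the other 4 genes. For transcripts the ranges that crossed 0 were -1.30 to 1.18 for Myo15-201, -2.21 to 0.176 for Myo15-203, -0.126 to 0.160 for Myo10-201, -0.443 to 0.063 for Myo10-204, -0.438 to 0.729 for Myo3b-203, -0.279 to 0.042 for Myo7a-212, -0.665 to 0.691 for Myo7a-201 and -0.176 to 0.056 for Myo6-203. Myo1e-203 stayed between 0.693 and 1.27 and Myo6-207 between -2.53 and -1.26. The mix p of *Myo1e* was 0.0126 to 0.0779 over the samples left out and 0.0526 by Simes.

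Over all genes DESeq2 called 64, no filter 9, limma-trend with a pseudocount of 0.1 called 1, and the fit without *Pou4f3(Δ/+)* replicates 1 and 2 called 6. That fit holds 1 *Pou4f3(Δ/+)* sample against 3 wildtype samples, and the lone sample is assumed to vary like the wildtype samples. With 1 sample left out the count was 0 to 193, the highest without *Pou4f3(Δ/+)* replicate 3, and 3 without wildtype replicate 4. For transcripts DESeq2 called 130, no filter 1, and leaving out 1 sample 0 to 3. For the transcript mix leaving out 1 sample gave 80 to 115 genes and leaving out *Pou4f3(Δ/+)* replicates 1 and 2 gave 166, again with 1 *Pou4f3(Δ/+)* sample and no spread of its own. The causes were not tested. No paired analysis was possible because wildtype and *Pou4f3(Δ/+)* samples share 1 replicate number only. Depth limits *Myo3a* and *Myo3b*, with at most 30 counts in a sample.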
